A study of Mus musculus with 26 samples.

Results

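The macrophage genes described here are Adgre1, Cd68, Csf1r, Mrc1, Cd163, Lyve1, Itgam, Itgax, Trem2 and Gpnmb, 10 of the 50686 genes listed in the count table of brown adipose tissue (BAT). They were chosen by name, as genes commonly used to mark macrophages and their states, with earlier results of these data already known. Each symbol matched 1 gene, and all 10 were among the 17286 genes with enough counts to be tested. The tissue was supraclavicular BAT of adult male C57BL/6J mice with a fat-specific Afadin knockout (KO), made with Adiponectin-Cre and Mllt4 flox/flox alleles, and of control littermates (WT). All mice were kept for 2 weeks at thermoneutrality, which the labels give as 30 °C, and part of them were then moved to 5 °C for 6 h. The 4 groups held 7 control mice at 30 °C (WT30), 7 mice labelled KO at 30 °C (KO30), 5 control mice at 5 °C (WT5) and 7 mice labelled KO at 5 °C (KO5). Adiponectin-Cre acts in adipocytes, so that macrophages are not the cells in which the gene was targeted.

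Macrophages of adipose tissue take up dead cells, lipid and debris, lie along vessels and nerves, and depend on signals through the receptor for colony stimulating factor 1. Resident cells along vessels are known for mannose receptor, Cd163 and Lyve1, while Itgax, Trem2 and Gpnmb are known from macrophages that load lipid in obese fat. In BAT, macrophages sit between adipocytes, endothelium and sympathetic nerve fibres, and have been studied for their part in the clearance of material that adipocytes release. The values here come from whole tissue, in which fewer cells of a type and less RNA per cell cannot be told apart.

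The total counts per library ran from 12705969 to 25732258, with a median of 17237377 over the 26 libraries. Values are normalized counts (CPM, relative to the scaled total of each library) scaled with TMM factors, unless a value per kilobase of exon is named. Afdn, which encodes Afadin, had 196 ± 21.0 CPM (SD, n = 7) in WT30 and 195 ± 27.4 CPM (SD, n = 7) in KO30, and 73.5 ± 4.27 CPM (SD, n = 5) in WT5 and 58.5 ± 4.15 CPM (SD, n = 7) in KO5. At 5 °C all 7 mice labelled KO were below all 5 control mice (log2 difference -0.33, SE 0.09, adjusted p = 0.116 by edgeR), while at 30 °C the labels overlapped, and the mice are therefore named by their labels. Ucp1, the uncoupling protein that defines brown adipocytes, had 985 ± 234 CPM (SD, n = 7) in WT30 and 16005 ± 552 CPM (SD, n = 5) in WT5. Some libraries stood apart. WT30-7 had 14.3% of its counts on mitochondrial genes, where the other libraries at 30 °C had 26.2% to 40.5%, and KO5-27 had a summed level of neutrophil markers of 65.0 CPM, where the median of its group was 10.6 CPM. KO5-23 had a summed level of lymphocyte markers of 26.5 CPM, where the median of its group was 4.09 CPM, and the highest Csf1r and Lyve1 of that group. KO5-28 had 19.2% of its counts on mitochondrial genes, where the other libraries at 5 °C had 25.3% to 39.3%. The summed level of skeletal muscle genes was very uneven, from 0.815 CPM in 1 library of WT5 to 7545 CPM in KO5-25. The results that follow were also computed without WT30-7 and KO5-27 together, an alternative chosen after the data were seen, and without each mouse in turn.

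In control mice, 6 h of cold split the 10 genes into opposite directions. Mrc1, Cd163, Lyve1 and Itgam rose, Adgre1, Csf1r, Itgax and Trem2 fell, and Cd68 and Gpnmb did not pass the test. In mice labelled KO the same 4 genes fell, and Cd68 joined the 4 that rose. The count in control mice was 8 of 10, where 65.0% of all genes tested passed, and the 4 that rose and the 4 that fell stood beside 31.6% and 33.4% of all genes. In mice labelled KO 9 of 10 passed, where the share of all genes was 68.6%, with 5 higher beside 33.7% of all genes and 4 lower beside 34.9%. The share of members called was therefore near or slightly above that of all genes, and what the members showed was which of them moved which way. The median log2 fold change of the 10 genes was 0.12 in control mice and 0.37 in mice labelled KO, and that of all genes was -0.01 and -0.03.

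**Figure D1:**
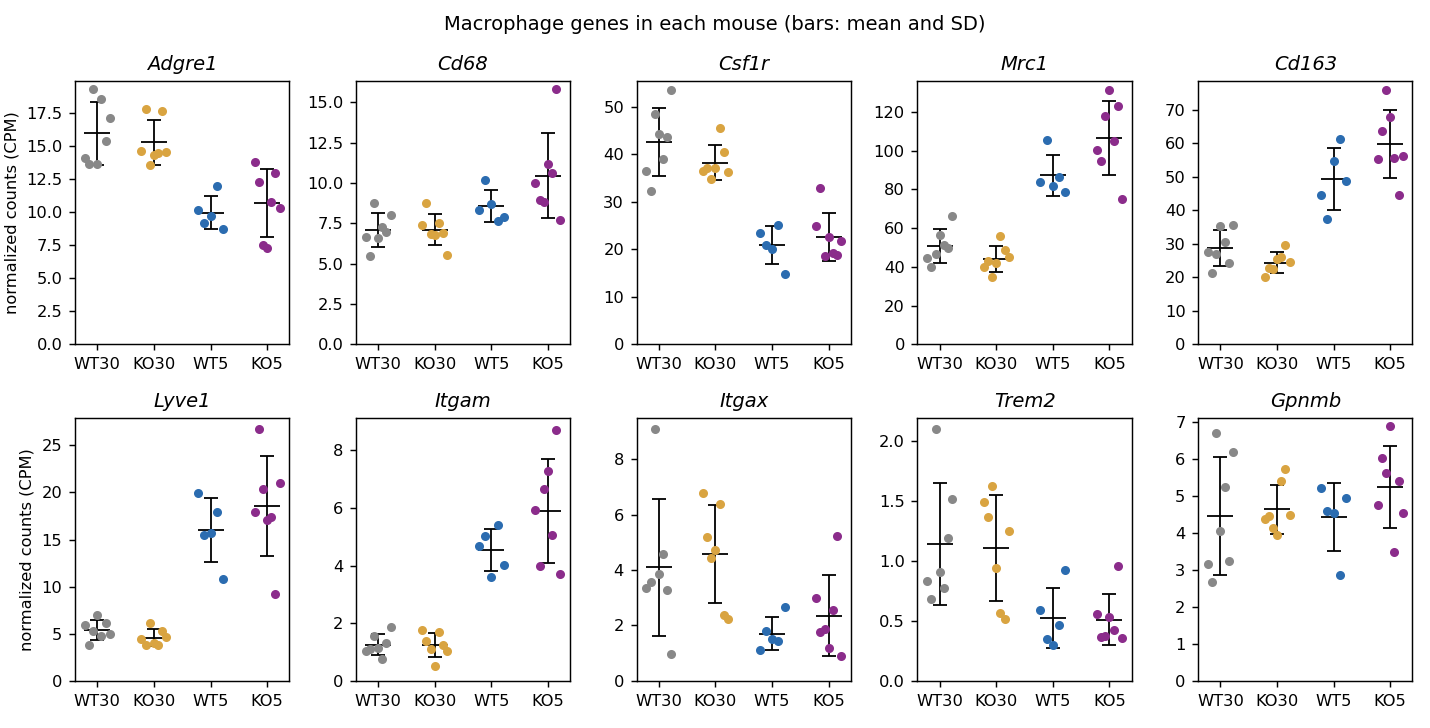
Normalized counts (CPM, linear axes from 0) of the 10 macrophage genes in each of the 26 mice, with WT30 in grey, KO30 in orange, WT5 in blue and KO5 in purple, and black bars for the mean and SD of each group. Mrc1, Cd163, Lyve1 and Itgam lie higher in every mouse at 5 °C than in any mouse of the same label at 30 °C, and Csf1r lies lower.

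Mrc1 and Cd163 rose together, and the RefSeq promoter windows of both (GRCm38.p6, 250 bases before the annotated start, plus strand) are shown because they are the pair of members with the closest change. That of Mrc1 lies at chr2:14229164-14229413 and that of Cd163 at chr6:124304401-124304650. Capitals mark CATGTG or its reverse complement CACATG, the core of the M-box that MITF and TFE factors read.

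Mrc1: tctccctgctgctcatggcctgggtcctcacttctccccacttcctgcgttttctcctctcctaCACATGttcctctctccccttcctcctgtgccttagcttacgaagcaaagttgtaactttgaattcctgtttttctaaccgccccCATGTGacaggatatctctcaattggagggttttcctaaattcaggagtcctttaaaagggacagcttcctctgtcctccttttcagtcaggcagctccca

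Cd163: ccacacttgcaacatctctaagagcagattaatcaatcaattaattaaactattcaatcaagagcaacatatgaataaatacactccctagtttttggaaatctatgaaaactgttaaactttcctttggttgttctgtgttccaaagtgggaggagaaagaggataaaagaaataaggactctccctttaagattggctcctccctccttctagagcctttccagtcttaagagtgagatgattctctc

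The Mrc1 window held this core at -186 and at -101 from the start, and the Cd163 window held none. Windows of 300 bases, which include the first 50 bases after the start, were matched for 7 of the 10 members (Mrc1, Gpnmb, Cd163, Itgam, Itgax, Cd68 and Trem2). The M-box core was in 1 of these 7 and in 14.2% of all 32851 windows. The PU.1 core GAGGAAGT was in 0 of 7 and in 3.2% of all windows, the E-box CACGTG in 0 of 7 and in 7.15%, and TATAAA in 0 of 7 and in 13.6%, each searched on both strands. No match in a member counted for more than 1 of these motifs, and a match or its absence in these windows describes letters only.

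Mrc1 encodes the mannose receptor CD206, an endocytic receptor for mannosylated glycoproteins. Its identifier is ENSMUSG00000026712.3, on chromosome 2 of mm10 from 14229392 to 14332057 (plus strand). It had 39.9 to 66.4 CPM (median 49.8) in WT30, 34.9 to 55.9 CPM (median 42.9) in KO30, and 75.0 to 131 CPM (median 105) in KO5, and the 5 mice of WT5 had 78.7, 81.7, 83.9, 86.5 and 105 CPM. Every mouse at 5 °C was above every mouse of its label at 30 °C. The log2 fold change with cold was 0.78 (SE 0.13, adjusted p = 5.69e-06) in control mice and 1.27 (SE 0.12, adjusted p = 3.82e-10) in mice labelled KO, where p came from the quasi-likelihood test of edgeR, adjusted over all genes by Benjamini-Hochberg, as for each adjusted p of a fold change below. Mir511, a microRNA gene within Mrc1, shares no exon base with it.

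Cd163, the scavenger receptor for hemoglobin bound to haptoglobin, moved by nearly the same amount. It is listed as ENSMUSG00000008845.9 on chromosome 6 of mm10 from 124304656 to 124330527 (plus strand). Its level was 21.3 to 35.6 CPM (median 27.6) in WT30, 20.2 to 29.5 CPM (median 24.4) in KO30 and 44.6 to 75.8 CPM (median 56.2) in KO5, with 37.4, 44.5, 48.6, 54.5 and 61.3 CPM in the mice of WT5. The groups at 5 °C and 30 °C again did not overlap within either label. The log2 fold change was 0.78 (SE 0.13, adjusted p = 1.14e-05) in control mice and 1.29 (SE 0.12, adjusted p = 6.06e-10) in mice labelled KO. The 35.6 CPM of WT30-7 was the highest at 30 °C and still below all 5 mice of WT5.

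Lyve1 encodes a hyaluronan receptor that both lymphatic endothelium and vessel-associated macrophages carry. The gene, ENSMUSG00000030787.4, lies on chromosome 7 from 110850607 to 110863239 (minus strand). It had 3.81 to 7.01 CPM (median 5.32) in WT30 and 3.80 to 6.17 CPM (median 4.43) in KO30. After cold it had 10.8, 15.5, 15.7, 17.9 and 19.99 CPM in WT5 and 9.22 to 26.8 CPM (median 17.9) in KO5, with the lowest value in KO5-27 and the highest in KO5-23. With cold it changed by 1.55 (SE 0.19, adjusted p = 4.66e-08) in control mice, a 2.94-fold rise, and 2.01 (SE 0.18, adjusted p = 1.33e-10) in mice labelled KO, a 4.02-fold rise. Without KO5-23 the latter was 1.89 (adjusted p = 3.32e-10). Of 9 other markers of lymphatic endothelium, 6 could be tested, of which 2 rose and 0 fell in control mice and 3 rose and 0 fell in mice labelled KO. The largest rise of these in control mice was that of Pdpn, a membrane glycoprotein, which rose by 0.93 (SE 0.30, adjusted p = 0.00796), and Flt4, the receptor for vascular endothelial growth factor C, had 0.66 (SE 0.13, adjusted p = 9.34e-05). Reln, which encodes reelin, had 0.19 (SE 0.34, adjusted p = 0.643). The sum of that list ran from 14.0 to 30.5 CPM in WT30 and from 26.1 to 37.3 CPM in WT5, from 16.2 to 25.5 CPM in KO30 and from 28.2 to 46.9 CPM in KO5. Ccl21a was at 0 in every mouse, and Prox1, which specifies lymphatic cells, and Tbx1 were too low to test. The part of lymphatic cells in the change of Lyve1 was not tested.

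Csf1r, the receptor tyrosine kinase for Csf1 and Il34, fell with cold. The gene, ENSMUSG00000024621.15, lies on chromosome 18 from 61100598 to 61132149 (plus strand), and 15.1% of its exon bases are shared with Hmgxb3 on the opposite strand. Its level was 32.4 to 53.5 CPM (median 43.7) in WT30, 34.8 to 45.5 CPM (median 37.1) in KO30 and 18.5 to 32.8 CPM (median 21.8) in KO5, and 14.8, 20.1, 21.0, 23.4 and 25.2 CPM in WT5. All mice at 5 °C were below all mice of the same label at 30 °C. The log2 fold change was -1.03 (SE 0.14, adjusted p = 3.76e-07) in control mice and -0.76 (SE 0.13, adjusted p = 6.63e-06) in mice labelled KO, and the latter was -0.88 (adjusted p = 2.00e-07) without KO5-23, which had the highest value of its group. Hmgxb3 had 17437 counts over all mice, and whether counting used strand is not given in the sources used here.

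Adgre1 encodes F4/80, an adhesion receptor used to recognize mouse macrophages. Its identifier is ENSMUSG00000004730.14, on chromosome 17 from 57358691 to 57483527 (plus strand). Its values were 13.7 to 19.3 CPM (median 15.4) in WT30, 13.6 to 17.8 CPM (median 14.5) in KO30 and 7.27 to 13.8 CPM (median 10.7) in KO5, with 8.70, 9.20, 9.74, 10.1 and 12.0 CPM in WT5. The control groups did not overlap, while 1 mouse of KO5 exceeded the lowest mouse of KO30. With cold it changed by -0.68 (SE 0.14, adjusted p = 0.000116) in control mice, 1.60-fold lower, and -0.51 (SE 0.13, adjusted p = 0.000725) in mice labelled KO.

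Cd68, a glycoprotein of late endosomes and lysosomes, differed from both of the above. Its identifier is ENSMUSG00000018774.13, on chromosome 11 from 69664213 to 69666153 (minus strand). It had 5.49 to 8.75 CPM (median 6.98) in WT30, 5.54 to 8.72 CPM (median 6.87) in KO30, 7.71 to 15.8 CPM (median 9.99) in KO5, and 7.64, 7.89, 8.30, 8.71 and 10.2 CPM in WT5. The groups overlapped under both labels. The log2 fold change was 0.26 (SE 0.14, adjusted p = 0.103) in control mice, which did not pass, and 0.56 (SE 0.13, adjusted p = 0.000402) in mice labelled KO. The highest value, 15.8 CPM, was that of KO5-27, and without that mouse the log2 fold change in mice labelled KO was 0.43 (adjusted p = 0.00124). Scaled by library size alone the change was 0.23 (adjusted p = 0.177) and did not pass. Such scaling moved the median of all genes from -0.01 to -0.14 in control mice and from -0.03 to -0.34 in mice labelled KO, and relative to that median Cd68 was at 0.58.

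The integrin chains Itgam and Itgax, which lie side by side on chromosome 7, moved in opposite directions. Itgam encodes CD11b of monocytes, macrophages and neutrophils and pairs with the chain encoded by Itgb2. It is listed as ENSMUSG00000030786.18, from 128062640 to 128118491 (plus strand), and had a range of 0.773 to 1.88 CPM (median 1.15) in WT30 and values of 3.60, 4.03, 4.69, 5.02 and 5.40 CPM in WT5. In mice labelled KO the range was 0.531 to 1.76 CPM (median 1.24) at 30 °C and 3.70 to 8.72 CPM (median 5.94) at 5 °C, with the highest in KO5-27. No mouse at 5 °C overlapped with the mice at 30 °C of its label, and the log2 fold changes, 1.82 (SE 0.24, adjusted p = 1.53e-07) and 2.23 (SE 0.22, adjusted p = 1.08e-09), were the highest of the 10 genes in each label. A total of 68.7% of its exon bases are shared with Gm49368, a longer gene model of the same strand with 13 counts over all mice, so that the level of Itgam is uncertain. The raw counts behind Itgam were 9 to 41 per mouse at 30 °C and 62 to 155 at 5 °C.

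Neutrophils also carry Itgam. Of 11 of their markers 6 could be tested, and 4 rose and 1 fell in control mice, while 5 rose and 1 fell in mice labelled KO. Their summed level was 2.496 to 7.29 CPM in WT30, 1.75 to 4.44 CPM in KO30, 5.62 to 12.1 CPM in WT5 and 5.38 to 65.0 CPM in KO5. S100a9, a calcium-binding protein abundant in neutrophils, had 0.789 ± 0.571 CPM (SD, n = 7) in WT30 and 2.66 ± 0.757 CPM (SD, n = 5) in WT5, and Retnlg had the largest rise in control mice, 2.81 on the log2 scale (SE 0.66, adjusted p = 0.000378). Elane, the elastase of neutrophil granules, went the other way and fell by 2.91 on the log2 scale (SE 0.57, adjusted p = 4.49e-05) in control mice, with -3.217 (SE 0.58, adjusted p = 8.74e-06) in mice labelled KO. Csf3r, the receptor for granulocyte colony stimulating factor, had 0.63 (SE 0.37, adjusted p = 0.133) in control mice and 1.61 (SE 0.33, adjusted p = 0.000120) in mice labelled KO. Ly6g, which defines neutrophils, was at 0 in every mouse at 30 °C and at most 0.169 CPM at 5 °C. Without KO5-27 the log2 fold change of Itgam in mice labelled KO was 2.11 (adjusted p = 2.77e-09), and the part of neutrophils in the rise was not tested.

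Itgax, the CD11c chain of dendritic cells and of some macrophages, is listed as ENSMUSG00000030789.9 from 128129547 to 128150657 (plus strand). It ranged from 0.963 to 9.08 CPM (median 3.56) in WT30, from 2.25 to 6.77 CPM (median 4.72) in KO30 and from 0.896 to 5.23 CPM (median 1.87) in KO5, and was 1.13, 1.46, 1.502, 1.81 and 2.65 CPM in WT5. The lowest value at 30 °C was that of WT30-7, and without it the 6 others were above all 5 mice of WT5. With cold it changed by -1.26 (SE 0.43, adjusted p = 0.0116) in control mice and -0.95 (SE 0.37, adjusted p = 0.0250) in mice labelled KO. The call in mice labelled KO was lost when KO30-8 (-0.87, adjusted p = 0.0507), KO5-25 (-0.84, adjusted p = 0.0525) or KO5-28 (-0.81, adjusted p = 0.0566) was left out. Dendritic cell markers fell or did not pass in control mice, with 0 higher and 4 lower of 9 tested, and had 1 higher and 3 lower in mice labelled KO. Their sum was 42.3 to 48.3 CPM in WT30 and 42.1 to 48.8 CPM in WT5, and 46.3 to 54.6 CPM (median 53.1) in KO30 and 33.9 to 48.8 CPM (median 39.0) in KO5. Most of that sum was Zbtb46, a transcription factor of dendritic cells that endothelium also expresses, with 34.6 ± 3.18 CPM (SD, n = 7) in WT30, 39.9 ± 3.25 CPM (SD, n = 7) in KO30, 37.9 ± 1.90 CPM (SD, n = 5) in WT5 and 31.8 ± 4.18 CPM (SD, n = 7) in KO5. Clec9a, a receptor of dendritic cells for dead cells, fell by 0.82 on the log2 scale (SE 0.25, adjusted p = 0.00572) in control mice and by 1.20 (SE 0.23, adjusted p = 3.74e-05) in mice labelled KO, and Siglech, of plasmacytoid cells, by 1.38 (SE 0.43, adjusted p = 0.00529) and 0.93 (SE 0.40, adjusted p = 0.0392).

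Trem2, a lipid-sensing receptor that signals through the adaptor Tyrobp, had the lowest level of the 10 genes. It is listed as ENSMUSG00000023992.14 on chromosome 17 from 48346401 to 48354147 (plus strand), and its raw counts were 10 to 38 per mouse at 30 °C and 5 to 17 at 5 °C. It had 0.687 to 2.10 CPM (median 0.907) in WT30, 0.517 to 1.63 CPM (median 1.25) in KO30, 0.359 to 0.956 CPM (median 0.427) in KO5, and 0.300, 0.348, 0.468, 0.593 and 0.922 CPM in WT5. The groups overlapped under both labels. The log2 fold change was -1.14 (SE 0.35, adjusted p = 0.00591) in control mice and -1.09 (SE 0.32, adjusted p = 0.00389) in mice labelled KO.

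Gpnmb, a transmembrane glycoprotein that rises in macrophages with lysosomal stress, is listed as ENSMUSG00000029816.10 on chromosome 6 from 49036546 to 49070929 (plus strand). It had 2.68 to 6.70 CPM (median 4.05) in WT30, 3.95 to 5.73 CPM (median 4.46) in KO30, 3.48 to 6.91 CPM (median 5.40) in KO5, and 2.86, 4.55, 4.60, 4.95 and 5.22 CPM in WT5. All 4 groups overlapped. With cold it changed by -0.02 in control mice (2 SE either side, -0.42 to 0.39, adjusted p = 0.948) and 0.17 in mice labelled KO (-0.20 to 0.54, adjusted p = 0.411).

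**Figure D2:**
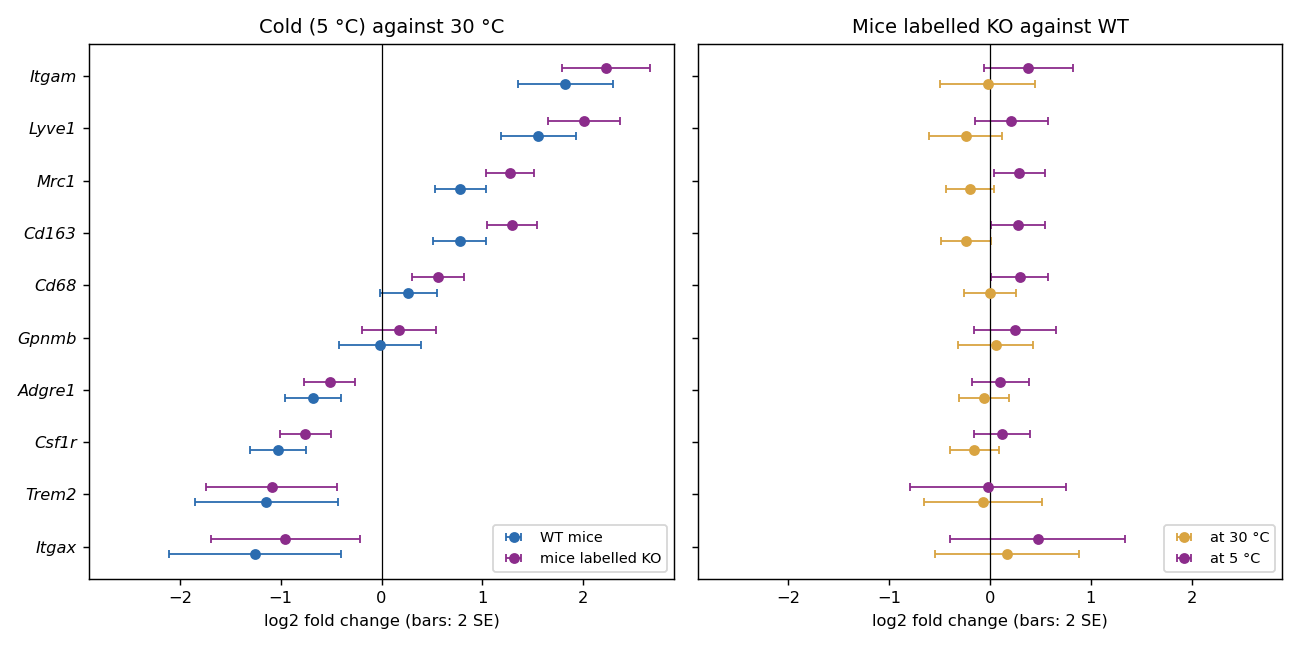
Log2 fold change of each macrophage gene from the edgeR fit, with bars of 2 SE, for 5 °C against 30 °C within each label (left, WT blue, KO purple) and for the KO label against WT at each temperature (right, 30 °C orange, 5 °C purple). In the left panel Itgam, Lyve1, Mrc1 and Cd163 lie to the right of 0 and Adgre1, Csf1r, Trem2 and Itgax to the left, and in the right panel the estimates run from -0.24 to 0.47.

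The genes were also compared mouse by mouse. In control mice the groups at 5 °C and 30 °C did not overlap for 6 of 10 genes (Mrc1, Cd163, Lyve1, Itgam, Csf1r and Adgre1), where the share over all genes tested was 46.4%. In mice labelled KO this held for 5 of 10 (all but Adgre1 of these), where the share was 40.4%. An exact two-sided permutation test, adjusted by Benjamini-Hochberg over the 40 tests of 10 genes in 4 comparisons, passed for 7 genes in control mice and 8 in mice labelled KO. It was run on these 10 genes alone, so that no share over all genes can be set beside these counts. Itgax did not pass it (adjusted exact permutation p = 0.107 in control mice and 0.0656 in mice labelled KO), and the other calls of the fit passed. The smallest p it allows is 0.00253 for 5 mice against 7 and 0.000583 for 7 against 7. Without WT30-7 and KO5-27 together the fit gave 8 genes in control mice and 9 in mice labelled KO, the same counts as with them, and without KO5-23 the counts were also 8 and 9. With WT30-7 and KO5-27 left out, 11455 and 11888 of all 17131 genes tested were called.

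Levels per kilobase of exon were used to set the genes beside each other. The place of Itgam in this order is uncertain, since 68.7% of its exon bases are shared with Gm49368. At 30 °C in control mice the order of mean CPM per kilobase was Mrc1 (7.96), Csf1r (7.38), Cd68 (5.65), Cd163 (5.27), Adgre1 (4.93), Lyve1 (1.86), Itgax (0.853), Gpnmb (0.686), Itgam (0.251) and Trem2 (0.231). Only the steps from Adgre1 to Lyve1 and from Gpnmb to Itgam separated all mice of both neighbours in this group. At 5 °C in control mice the order was Mrc1 (13.7), Cd163 (9.02), Cd68 (6.80), Lyve1 (5.48), Csf1r (3.62), Adgre1 (3.07), Itgam (0.905), Gpnmb (0.681), Itgax (0.356) and Trem2 (0.106). Here the steps from Mrc1 to Cd163, Adgre1 to Itgam and Itgax to Trem2 separated all mice, and the other neighbours overlapped. Lyve1 thus stood below Csf1r in mean at 30 °C and above it at 5 °C.

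Ratios of 2 genes within a library do not depend on the scaling of that library, and they are given as values with no test, since the genes had already been seen to move apart. The ratio of Mrc1 to Adgre1 CPM was 2.41 to 4.14 in WT30 and 2.41 to 3.85 in KO30, and 7.20 to 11.5 in WT5 and 7.25 to 18.0 in KO5. The ratio of Lyve1 to Csf1r was 0.0934 to 0.162 in WT30, 0.0846 to 0.177 in KO30, 0.711 to 0.853 in WT5 and 0.490 to 1.10 in KO5. In both ratios the temperatures were separated in every mouse. The ratio of Cd163 to Mrc1 overlapped among all groups, with medians of 0.579 in WT30, 0.542 in KO30, 0.617 in WT5 and 0.550 in KO5. The ratio of Cd68 to Adgre1 was 0.392 to 0.482 in WT30 and 0.636 to 1.11 in WT5, so that these commonly paired macrophage markers did not keep their proportion.

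**Figure D3:**
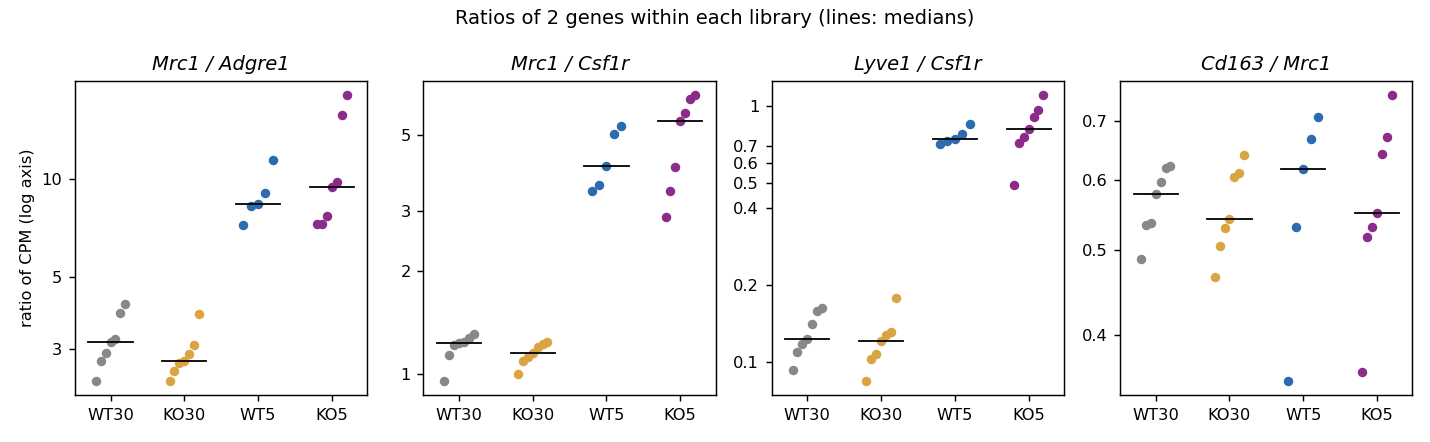
Ratio of the CPM of 2 macrophage genes within each library, on log axes, for each of the 26 mice by group, with lines at the group medians. Mrc1 to Adgre1, Mrc1 to Csf1r and Lyve1 to Csf1r are higher in every mouse at 5 °C than in any mouse at 30 °C, while Cd163 to Mrc1 overlaps, with medians of 0.542 to 0.617.

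The comparison of labels asked whether deletion aimed at fat cells went along with another level of macrophage transcripts. At 30 °C, 0 of the 10 genes passed (0.081% of all genes did). DESeq2, which gave no adjusted p for Trem2, called 0 of the others (0.278% of all genes). An unadjusted p under 0.05 was found for 0 of the 10, where 7.65% of all genes were under it. No gene separated the labels at 30 °C, as for all but 0.249% of all genes. The estimates ran from -0.24 for Lyve1 (2 SE either side, -0.60 to 0.12) to 0.17 for Itgax (-0.55 to 0.88). At 5 °C, 0 of 10 passed in edgeR's quasi-likelihood test (0.139% of all genes did). DESeq2 again gave no adjusted p for Trem2 and called 0 of the others (1.14% of all genes). An unadjusted p under 0.05 was found for 3 of the 10, where 13.4% of all genes were under it. The labels overlapped for all 10 genes, where 1.11% of all genes tested did not overlap. The estimates at 5 °C were positive for 9 of 10 genes, with a median of 0.26 where that of all genes was 0.02. In the other gene lists, described below, the median at 5 °C ran from -0.03 for blood endothelium to 1.16 for lymphocyte genes. The estimate of Mrc1 was 0.29 (0.03 to 0.55, adjusted p = 0.320), that of Cd68 0.29 (0.01 to 0.58, adjusted p = 0.365) and that of Cd163 0.28 (0.01 to 0.55, adjusted p = 0.362). The estimate was 0.21 for Lyve1 and 0.12 for Csf1r, and without KO5-23 it was 0.10 (adjusted p = 0.851) and 0.0018 (adjusted p = 0.997).

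The difference of the cold responses between labels was tested as an interaction. None of the 10 genes passed in edgeR's quasi-likelihood test or in DESeq2, where 1.16% of all genes passed in edgeR and 2.82% in DESeq2. An unadjusted p under 0.05 was found for 2 of the 10, where 16.2% of all genes were under it. The estimates were positive for 10 of 10, from 0.05 for Trem2 to 0.52 for Cd163, with a median of 0.30 beside 0.04 for all genes. In the other gene lists the median interaction ran from -0.14 for blood endothelium to 0.95 for neutrophil genes. The 10 estimates are not independent of each other, since the same mice enter each. That of Cd163 was 0.52 (SE 0.18, adjusted p = 0.151) and that of Mrc1 0.49 (SE 0.17, adjusted p = 0.157). With library size alone, which moved the median of all genes from 0.04 to -0.15, those of Adgre1, Gpnmb and Trem2 became negative and that of Cd163 was 0.31. A larger cold response of Mrc1 and Cd163 in mice labelled KO was therefore neither shown nor limited to small values by these data, with intervals of 0.14 to 0.84 for Mrc1 and 0.16 to 0.88 for Cd163 before adjustment.

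The genes varied among mice of 1 group without moving as a block. Over the 26 mice, after the group means were removed, the 45 pairs of the 10 genes had Pearson's r from -0.48 (Cd68 with Lyve1) to 0.55 (Mrc1 with Itgam), with a median of 0.14, and 27 pairs were positive. These values are a description, since the points share library size and scaling. For the 4 pairs of related genes that were tested, Adgre1 with Csf1r had r = 0.447 (permutation p = 0.0496, adjusted 0.131) and rho = 0.427 (permutation p = 0.0510, adjusted 0.204), and r = 0.468 without the 2 mice farthest from the median of Adgre1. Cd163 with Lyve1 had r = 0.399 (permutation p = 0.0655, adjusted 0.131) and rho = 0.212 (permutation p = 0.323, adjusted 0.479), and r fell to 0.0945 without WT30-2 and KO5-27, so that it rested on those mice. Trem2 with Gpnmb (r = 0.214, permutation p = 0.320, adjusted 0.427; rho = 0.0927, permutation p = 0.669, adjusted 0.669) was weaker, with r = 0.0564 without the 2 farthest mice. Itgam with Itgax (r = 0.140, permutation p = 0.527, adjusted 0.527; rho = 0.201, permutation p = 0.359, adjusted 0.479) had r = 0.0750 without them.

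**Figure D4:**
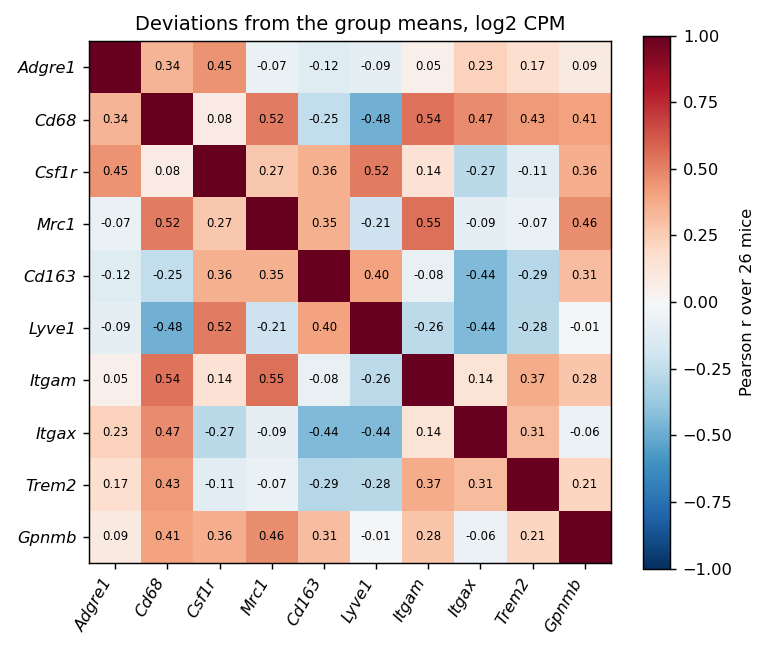
Pearson's r over 26 mice between the log2 CPM deviations of each pair of macrophage genes from their group means, from blue (negative) to red (positive). The highest values are 0.55 for Mrc1 with Itgam and 0.54 for Cd68 with Itgam, and the lowest is -0.48 for Cd68 with Lyve1.

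The genes outside the list whose deviations were most like the mean of the 10 standardized members over 26 mice were Gm42900 (r = 0.783), Ncf1 (r = 0.769), Gm12322 (r = 0.765), Ccl6 (r = 0.755), Ptprj (r = 0.748), Tent5a (r = 0.747), Scin (r = 0.739), Dapp1 (r = 0.732), Apobec1 (r = 0.731) and Gadd45a (r = 0.728). Of the 100 genes with the highest r, 5 belonged to the list of core macrophage genes, which holds 22 of the 17286 genes tested.

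Other genes known from macrophages were described by lists, and fold changes in them are for cold in control mice unless mice labelled KO are named. KO5-27 had the highest summed level of KO5 in the core macrophage, Csf1r pathway, inflammatory, alternative activation, phagocytosis and neutrophil lists. For core macrophage genes it had 480 CPM, where the group median was 380 CPM. How far the counts in mice labelled KO rest on that mouse was not tested. A gene that passed in 1 label and not in the other was not thereby shown to differ between labels. The interaction passed in edgeR for 4 of the 170 genes tested in the macrophage, blood cell and lymphatic lists, where 1.16% of all genes passed. Of 22 core macrophage genes, 4 rose and 6 fell in control mice with a median log2 fold change of -0.03, and 10 rose and 4 fell in mice labelled KO with a median of 0.24. Cx3cr1, the receptor for fractalkine, fell in control mice (log2 fold change -3.37, SE 0.37, adjusted p = 9.23e-09) and had 3.03 ± 0.826 CPM in WT30 (SD, n = 7) against 0.273 ± 0.208 CPM in WT5 (SD, n = 5). Lyz2, the lysozyme of myeloid cells and the most abundant of the list, had -0.54 (SE 0.19, adjusted p = 0.0149) in control mice and -0.18 (SE 0.17, adjusted p = 0.360) in mice labelled KO. C1qa and C1qb, complement subunits made by resident macrophages and chosen here after their values were seen, had 26.0 ± 3.46 and 23.8 ± 2.92 CPM (SD, n = 7) in WT30 and 25.9 ± 2.86 and 30.8 ± 2.85 CPM (SD, n = 5) in WT5. C1qb was called higher after cold in both labels, and C1qa only in mice labelled KO.

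Of 14 tested genes of resident and perivascular macrophages, 4 rose and 6 fell in control mice (median -0.31) and 5 rose and 3 fell in mice labelled KO (median -0.07). The largest rise in control mice was that of Hmox1, heme oxygenase, which other cells also express, with 9.24 ± 1.12 CPM in WT30 (SD, n = 7) and 542 ± 143 CPM in WT5 (SD, n = 5) (log2 fold change 5.87, SE 0.30, adjusted p = 3.52e-15). Cd209g, a lectin gene, had the largest fall, -2.07 (SE 0.42, adjusted p = 8.73e-05). Stab1, a scavenger receptor of macrophages and sinusoidal endothelium, had 67.5 ± 7.48 CPM (SD, n = 7) in WT30 and 64.6 ± 4.64 CPM (SD, n = 5) in WT5, and its log2 fold change was -0.06 with an adjusted p of 0.505 (SE 0.08).

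In the pathway of Csf1r, 4 of 13 tested genes rose and 4 fell in control mice and 4 rose and 2 fell in mice labelled KO. Csf1, the ligand, rose by 0.59 (SE 0.25, adjusted p = 0.0392) in control mice and by 0.68 (SE 0.23, adjusted p = 0.0103) in mice labelled KO while its receptor fell. Il34, the other ligand and chosen after its values were seen, fell by 0.58 on the log2 scale (SE 0.14, adjusted p = 0.000662) in control mice and by 1.06 (SE 0.13, adjusted p = 3.74e-08) in mice labelled KO. Ptpn6, the phosphatase SHP-1, had the largest fall, -0.95 (SE 0.25, adjusted p = 0.00141) in control mice and -0.27 (SE 0.22, adjusted p = 0.268) in mice labelled KO, and Cbl, a ubiquitin ligase, rose by 0.33 (SE 0.11, adjusted p = 0.0145) in control mice and had -0.0017 (SE 0.105, adjusted p = 0.990) in mice labelled KO.

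Among 19 genes around Trem2 and the MITF and TFE factors, 9 rose and 1 fell in control mice and 13 rose and 2 fell in mice labelled KO, with medians of 0.26 and 0.30. Ms4a4a, a membrane protein of macrophages, rose in control mice (log2 fold change 3.13, SE 0.30, adjusted p = 7.70e-10) and had 0.619 ± 0.301 CPM in WT30 (SD, n = 7) against 5.50 ± 1.29 CPM in WT5 (SD, n = 5). Flcn and Fnip1, partners in nutrient signalling that most cells express, rose by 1.48 (SE 0.15, adjusted p = 1.63e-09) and 1.58 (SE 0.09, adjusted p = 2.94e-14) in control mice. Mitf itself fell by 0.69 on the log2 scale (SE 0.12, adjusted p = 1.17e-05).

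The 18 lipid-associated macrophage genes had 7 higher and 4 lower in control mice and 9 higher and 2 lower in mice labelled KO. Cst7, a cysteine protease inhibitor, rose in control mice (log2 fold change 3.80, SE 0.26, adjusted p = 8.94e-13) and had 1.04 ± 0.286 CPM in WT30 (SD, n = 7) against 14.8 ± 2.68 CPM in WT5 (SD, n = 5). Clec7a, the beta-glucan receptor Dectin-1, fell by 1.61 on the log2 scale (SE 0.47, adjusted p = 0.00362) in control mice and had -0.79 (SE 0.40, adjusted p = 0.0789) in mice labelled KO. Lpl and Plin2, which had the highest mean levels of the list over all 26 mice, are adipocyte genes as well. They rose by 2.05 (SE 0.12, adjusted p = 3.44e-14) and 2.88 (SE 0.16, adjusted p = 1.95e-14). Apoe, chosen after its values were seen, had a mean of 1331 CPM in WT30, where Plin2 had 367 CPM. It was called lower after cold in both labels.

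Of 14 tested genes of inflammatory activation, 7 rose and 2 fell in control mice and 10 rose and 1 fell in mice labelled KO. Saa3, an acute-phase protein that adipocytes also make, had 0.184 ± 0.0416 CPM in WT30 (SD, n = 7) and rose by 6.30 on the log2 scale (adjusted p = 5.65e-09), to 15.3 ± 12.3 CPM in WT5 (SD, n = 5), while Nos2, the inducible nitric oxide synthase, fell by 2.18 on the log2 scale (SE 0.16, adjusted p = 7.02e-12). Nfkbia, an inhibitor of NF-kB, rose by 1.60 (SE 0.09, adjusted p = 2.86e-14) and Tlr4, the receptor for endotoxin, by 0.38 (SE 0.11, adjusted p = 0.00502). The summed level of this list was 150 to 376 CPM in KO5, with the highest in KO5-27.

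Of 12 tested genes of alternative activation, 5 rose and 3 fell in control mice and 8 rose and 2 fell in mice labelled KO. Il4ra, the receptor chain for interleukin-4, rose in control mice (log2 fold change 2.48, SE 0.20, adjusted p = 2.51e-11) and had 14.5 ± 3.30 CPM in WT30 (SD, n = 7) against 81.2 ± 20.4 CPM in WT5 (SD, n = 5), and Tgm2, a transglutaminase, rose by 0.68 (SE 0.10, adjusted p = 1.22e-06). Stat6, the transcription factor downstream of that receptor, fell by 0.86 on the log2 scale (SE 0.06, adjusted p = 4.86e-13), and Slc7a2, an arginine transporter, by 1.29 (SE 0.26, adjusted p = 9.79e-05). In WT30 the means of Tgm2 and Stat6 were 124 and 68.4 CPM, where that of Adgre1 was 16.0 CPM. The part of macrophages in the changes of this list was not tested.

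The 9 genes of antigen presentation by MHC class II had 1 higher and 6 lower in control mice and 1 higher and 2 lower in mice labelled KO. Ciita, a transcriptional activator of MHC class II genes, fell by 1.49 on the log2 scale (SE 0.23, adjusted p = 2.41e-06) in control mice. Cd74 and H2-Aa fell there by 0.40 (SE 0.13, adjusted p = 0.00983) and 0.41 (SE 0.13, adjusted p = 0.00967). In mice labelled KO neither Cd74 (-0.19, adjusted p = 0.165) nor H2-Aa (-0.13, adjusted p = 0.346) passed. Cd80, a costimulatory ligand, had 1.47 (SE 0.50, adjusted p = 0.0107), at under 1.1 CPM in the mean of each group. The 15 genes of phagocytosis had 5 higher and 5 lower in control mice and 7 higher and 3 lower in mice labelled KO. Among them Msr1, a scavenger receptor for modified lipoprotein, rose by 1.37 (SE 0.16, adjusted p = 3.83e-08) and Cd36, which adipocytes express strongly, by 0.96 (SE 0.06, adjusted p = 2.21e-13). Itgb5, an integrin chain that other cells share, fell by 1.80 on the log2 scale (SE 0.10, adjusted p = 7.83e-15), and Abca1, a cholesterol exporter, by 0.55 (SE 0.18, adjusted p = 0.0106) in control mice, while Abca1 had 0.06 (SE 0.16, adjusted p = 0.774) in mice labelled KO.

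**Figure D5:**
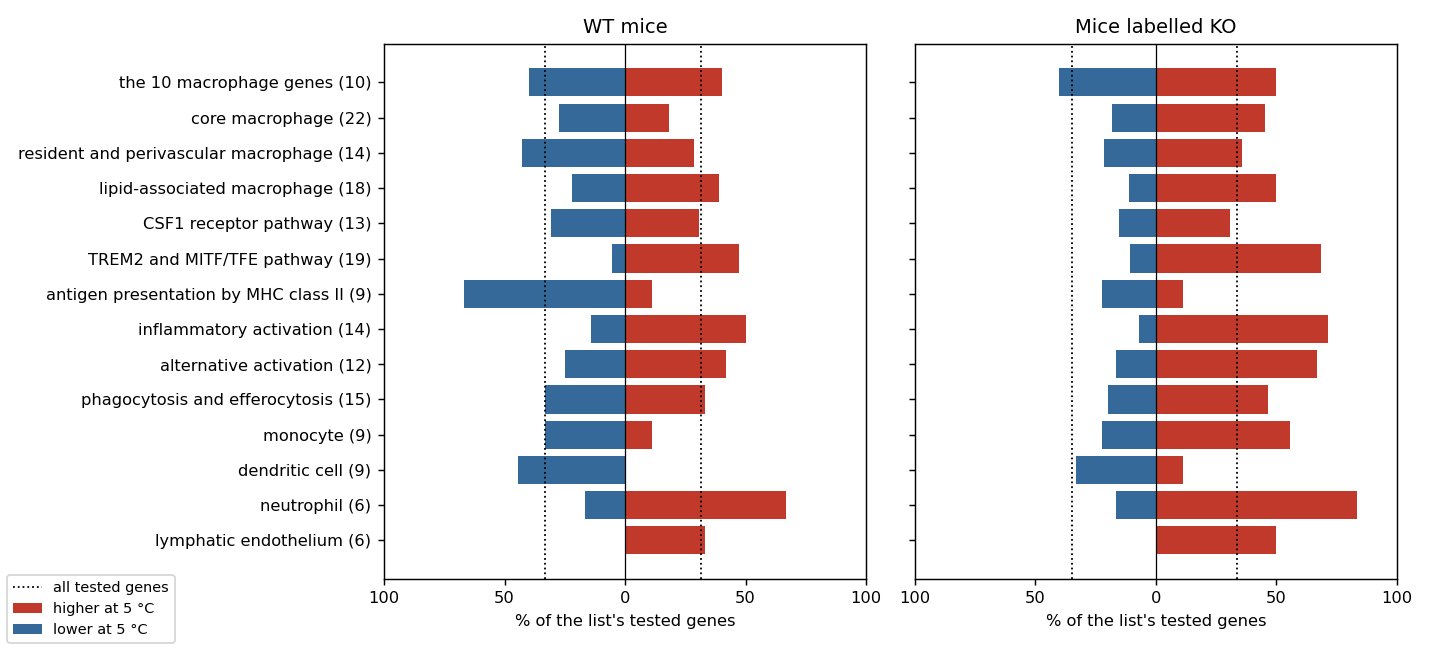
Share of the tested genes of each list (number tested in brackets) that were higher (red, to the right) or lower (blue, to the left) after cold at an adjusted p under 0.05, in WT mice and in mice labelled KO, with dotted lines for the shares over all tested genes. The TREM2 and MITF/TFE list has 9 of 19 higher and 1 lower in WT mice, and the MHC class II list 1 of 9 higher and 6 lower.

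Genes of related blood cells gave other patterns. Of 9 tested monocyte genes, 1 rose and 3 fell in control mice and 5 rose and 2 fell in mice labelled KO. Vcan, which fibroblasts also make, rose by 2.13 on the log2 scale (SE 0.16, adjusted p = 5.32e-12) in control mice and Spn, which encodes CD43, fell by 1.22 (SE 0.32, adjusted p = 0.00164). Fn1 and Nr4a1, the most abundant of the list, had -0.02 (SE 0.22, adjusted p = 0.935) and -0.96 (SE 0.49, adjusted p = 0.0862) in control mice, and in mice labelled KO Fn1 rose by 0.66 (SE 0.20, adjusted p = 0.00474) and Nr4a1 had -0.82 (SE 0.44, adjusted p = 0.0999). Of 11 tested lymphocyte genes 0 rose and 6 fell in control mice and 0 rose and 5 fell in mice labelled KO, with a summed level of 6.15 to 16.4 CPM in WT30 and 2.08 to 4.44 CPM in WT5, and of 6.87 to 14.5 CPM in KO30 and 2.68 to 26.5 CPM in KO5, the highest in KO5-23. Cd79a, of B cells, fell by 2.29 on the log2 scale (SE 0.41, adjusted p = 2.22e-05) in control mice and by 1.58 (SE 0.35, adjusted p = 0.000226) in mice labelled KO. Cd4 and Ms4a1 fell in control mice, by 1.19 (SE 0.41, adjusted p = 0.0118) and 2.54 (SE 1.02, adjusted p = 0.0270), and did not pass in mice labelled KO (-0.11, adjusted p = 0.781, and 0.78, adjusted p = 0.344). Of the 170 genes tested in these macrophage, blood cell and lymphatic lists, 0 passed for the KO label at 30 °C in edgeR's quasi-likelihood test and 0 in DESeq2, with 8 at an unadjusted p under 0.05, where 7.65% of all genes tested were under it. At 5 °C 0 passed in edgeR and 2 in DESeq2 (Stat6 and Ctsb, the latter chosen after its values were seen), with 36 at an unadjusted p under 0.05, where 13.4% of all genes tested were under it and 1.14% were called by DESeq2.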

How the data were processed

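BAT was profiled by RNA-sequencing with a stranded kit after depletion of rRNA. The authors aligned reads to mm10 with STAR 2.5.2b, counted them per gene with featureCounts 1.5.2 and deposited the counts without normalization. The strand setting of the counting is not given in the sources used here. Groups were taken from the labels. Replicates are separate mice.

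Counts of 50686 genes, 50376 of which have a symbol in GENCODE M21, were filtered with filterByExpr by group, and 17286 were tested in R 4.3.3 with edgeR 4.0.16 (legacy quasi-likelihood, the method of the authors' edgeR 3.22.0, TMM factors, 1 term for each of the 4 groups, Benjamini-Hochberg over all genes, threshold 0.05). Log2 CPM had a prior count of 2. Permutation tests were exact and two-sided for group comparisons. Those of the 4 gene pairs used 100000 permutations within groups. Exon lengths are from GENCODE M21 and promoters from RefSeq (GRCm38.p6). The fits were also run on simulated counts in which few genes changed, unlike these data, so that this run does not bear on the scaling here. The alternatives were DESeq2 1.42.0, library size alone, upper-quartile factors, other filters, edgeR's revised method, only the groups compared, and leaving out mice.

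The genes named are the 10 members, Afdn, Ucp1 and the 10 genes most like the members. From each hand-written list came the 2 with the highest mean level over all 26 mice. Also named are those with the largest rise and fall past the threshold in control mice. A gene of the core macrophage list that this rule names is not reported here. The members and lists were chosen with earlier results of these data known. The remaining lists, described by counts alone (mast cell and eosinophil, lymph node, blood endothelium, fibroblast and preadipocyte, brown adipocyte, skeletal muscle) had, in control mice after cold, 0 higher and 1 lower of 4, 1 and 1 of 3, 5 and 5 of 10, 2 and 1 of 10, 6 and 3 of 12, and 0 and 0 of 8. Low counts limit Trem2 and Itgam, and p-values cover the spread between these mice only.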

Additional observations from a re-analysis of the deposited data

Results flagged for a closer look

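Among the 40 sets of 10 genes in 4 groups, 3 held a mouse far from the others of its group, and chance alone flags about 1 set in 20. In KO5, the mouse KO5-27 had 15.8 CPM of Cd68 and 0.956 CPM of Trem2, both the highest of the group. In WT5, the mouse WT5-19 had 2.86 CPM of Gpnmb, the lowest of the group.

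Of the genes in the lists, 4 had a cold response that differed between labels in edgeR's quasi-likelihood test of the interaction with Benjamini-Hochberg adjustment, and no macrophage member was among them. DESeq2 called 8 of the 170 genes tested in these lists, the 4 included, where it called 2.82% of all genes. The difference (mice labelled KO minus control mice, log2) was 0.44 for Ctsb (adjusted p = 0.0355), 0.31 for Stat6 (adjusted p = 0.0388), 0.51 for Itgb5 (adjusted p = 0.0379) and -0.46 for Zbtb46 (adjusted p = 0.0388). Ctsb, a lysosomal protease of the lipid-associated list, was chosen after its values were seen. Stat6 fell in both labels, by 0.86 and 0.55 on the log2 scale, and Itgb5 by 1.8 and 1.29. Zbtb46, of the dendritic cell list, had 0.13 in control mice and -0.33 in mice labelled KO. The cause of these differences was not tested.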

How the results depend on the processing

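The count of called genes kept to within 1.5 times its value in all comparisons under every alternative. With at least 10 counts in every mouse 8 of the 10 genes could be tested, and 6 were called in control mice and 7 in mice labelled KO. Under that filter 9013 and 9332 of all 12718 genes tested were called. Leaving out each mouse in turn gave 8 to 9 genes in control mice, 8 to 9 in mice labelled KO, and 0 for the label and for the interaction.

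Library size alone changed the most. The correlation of Adgre1 with Csf1r became 0.712 (adjusted permutation p = 0.00088) and that of Cd163 with Lyve1 0.456 (adjusted permutation p = 0.0279). It turned the sign of Gpnmb for cold in mice labelled KO (-0.17), of Adgre1 (0.0801), Cd68 (0.14), Itgam (0.12) and Trem2 (0.0493) for the label at 30 °C, and of Adgre1 (-0.0035), Trem2 (-0.13) and Gpnmb (-0.0034) for the interaction. It moved the median of all genes for the label at 30 °C from -0.02 to 0.13. None of these was called in either fit. For the label at 30 °C, Cd68 was also positive under upper-quartile factors (0.0266), no filter (0.0094), the stricter filter (0.0063), only the groups compared (0.0099) and without WT30-7 and KO5-27 (0.0433). Itgam was 0.009 and 0.12 under the first and the last of these, and Trem2 0.0231 under the last. The interaction of Trem2 was -0.0004 with upper-quartile factors and -0.27 without both libraries, which also put Gpnmb for cold in control mice at 0.0571.

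Over the 26 fits without 1 mouse, signs turned for the label at 30 °C in Cd68 (-0.057 to 0.0636), Gpnmb (-0.037 to 0.18), Itgam (-0.11 to 0.12) and Trem2 (-0.18 to 0.14), for the label at 5 °C in Trem2 (-0.26 to 0.28), for cold in control mice in Gpnmb (-0.11 to 0.11), and for the interaction in Itgax (-0.0341 to 0.52) and Trem2 (-0.18 to 0.35). Cd68 in control mice passed without KO5-27 (0.26, adjusted p = 0.0477), and Itgax in mice labelled KO ran from -1.29 to -0.81 with 3 losses of its call. The causes were not tested. No paired analysis was possible because the groups share no replicate numbers.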
